A study of Mus musculus with 12 samples.

Results

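The collagen chains described here are those of beaded filaments (Col6a1, Col6a2, Col6a3), of the short-chain network (Col8a1) and of fibril surfaces (Col12a1, Col14a1). They were chosen by name, as 6 of the 41709 genes in the deposited table, and all 6 had counts in every library. RNA was sequenced from whole aortic valve leaflets cut by laser microdissection from fixed, frozen sections of mice aged 2 months, on a mixed C57BL/6J;129SvEv background. The labels name 4 genotypes, CTRL, ECKO, SMKO and DKO, each with 3 libraries described as biological triplicates. The labels give the genotypes as codes only. In the study as it is known, ECKO and SMKO lack fibulin-4 (gene Efemp2) in endothelial and in smooth muscle cells, DKO lacks it in both, and CTRL carries neither deletion. The labels state neither the Cre drivers nor the sex of the animals nor any pooling. The leaflet also holds interstitial cells, and in bulk RNA fewer cells of a type and less RNA per cell cannot be told apart.

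Collagen VI is a heterotrimer that assembles into beaded microfibrils close to cells, where it links cell surface receptors to fibrillar collagen and to small proteoglycans. Collagen VIII is a short-chain collagen that forms open networks and is known from vessel walls, where endothelial and smooth muscle cells make it during growth and after injury. Collagens XII and XIV belong to the fibril-associated collagens with interrupted triple helices: they sit on the surface of collagen I fibrils and influence fibril spacing and diameter. Valve leaflets are layered sheets of collagen, proteoglycan and elastin, made mostly by interstitial cells under an endothelial cover.

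Promoter sequences were taken from RefSeq (build GRCm38.p6) for the chains whose level was higher in every DKO library than in every CTRL library by depth-scaled counts, to show what precedes the genes that carry the main difference. The table held windows of 300 bases, from 250 before to 50 after the start, for 4 of the 6 chains, and Col12a1 and Col14a1 had no entry. The 250 bases before the start are printed on the gene's strand, 5′ to 3′, and for Col6a2 those of the first of 2 starts. Capitals mark every match, on either strand, to the motifs searched. The TATA box was searched as TATAAA and the GC box by the letters GGGCGG. The AP-1 site was searched as TGANTCA and the SMAD element as the letters CAGAC. The TEAD site was searched as GGAATG, and the box bound by NF-Y was searched by the letters CCAAT.
Col6a1 (chr10:76726045-76726294, minus strand): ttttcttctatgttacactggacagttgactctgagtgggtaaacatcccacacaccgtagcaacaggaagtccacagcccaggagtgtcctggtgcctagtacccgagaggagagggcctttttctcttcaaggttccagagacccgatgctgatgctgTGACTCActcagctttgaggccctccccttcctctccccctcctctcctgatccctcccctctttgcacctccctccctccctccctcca
Col6a2 (chr10:76623405-76623654, minus strand): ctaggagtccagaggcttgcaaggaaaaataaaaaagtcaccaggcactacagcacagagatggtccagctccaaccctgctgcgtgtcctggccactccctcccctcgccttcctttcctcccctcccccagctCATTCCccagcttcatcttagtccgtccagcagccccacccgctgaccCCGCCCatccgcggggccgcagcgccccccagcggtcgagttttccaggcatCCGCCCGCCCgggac
Col6a3 (chr1:90843972-90844221, minus strand): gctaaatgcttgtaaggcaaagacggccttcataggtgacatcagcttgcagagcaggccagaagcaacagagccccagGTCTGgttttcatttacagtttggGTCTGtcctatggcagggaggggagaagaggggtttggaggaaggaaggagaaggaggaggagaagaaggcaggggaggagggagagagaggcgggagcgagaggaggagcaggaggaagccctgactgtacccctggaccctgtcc
Col8a1 (chr16:57754738-57754987, minus strand): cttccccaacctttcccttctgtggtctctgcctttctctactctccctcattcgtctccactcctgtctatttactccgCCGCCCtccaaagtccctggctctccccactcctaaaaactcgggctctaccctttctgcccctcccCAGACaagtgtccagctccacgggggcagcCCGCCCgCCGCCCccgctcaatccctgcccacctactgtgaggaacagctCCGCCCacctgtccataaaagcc
The Col6a1 window held a single match, to the AP-1 letters, which begin 90 bases before the start, at position -90. The AP-1 letters occur in 7.81% of the 32851 promoters in the table. The Col8a1 window held 4 GC box matches, beginning at -170, -73, -66 and -23, and 1 SMAD element at -103. GC box letters occur in 35.7% of promoters and SMAD element letters in 49.6%. The printed Col6a2 window held 3 GC boxes, of which those at -15 and -11 overlap, and 1 TEAD match at -115, letters found in 14.7% of promoters. Col6a3 held 2 SMAD element matches, at -171 and -147. No motif was common to all 4 windows, and the GC content of the 300 bases ran from 56.3% (Col6a3) through 57.3% (Col6a1) and 60.3% (Col8a1) to 64.3% (Col6a2), beside a median of 52.7% over all promoters. Col6a1 and Col6a2 lie near each other on chromosome 10, on the same strand, with 2 annotated genes between them, neither of them protein-coding. Col6a3 lies on chromosome 1, Col8a1 on chromosome 16, Col12a1 on chromosome 9 and Col14a1 on chromosome 15, and no other annotated gene shared an exon region with any of the 6.

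Sequencing was shallow: total counts per library ran from 74827 to 615665 (median 321312), 16588 genes had a count and 6296 passed the filter on low counts, all 6 chains among them. Mitochondrial genes took 10.5% to 28.5% of counts. Efemp2 had 58, 23 and 9 counts in CTRL 1 to 3, 3, 15 and 8 in ECKO, 4, 0 and 0 in SMKO, while every DKO library had 0. The leaflet marker lists were present, with all 7 interstitial and all 8 endothelial markers detected. Y-linked genes had 2 or more counts in CTRL 3, SMKO 1 and DKO 3 and in no other library. Levels below are CPM, which scale each library to a common depth by the trimmed mean of M values (TMM), for comparing libraries, or the deposited TPM, which also divide by transcript length, for comparing genes.

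In the control leaflet collagen VI was among the most abundant collagens. By TPM, Col6a1 averaged 287 ± 131 (SD, n = 3) and Col6a2 175 ± 41.8 in CTRL, ranks 4 and 5 of 42 collagen chains, and both chains held these ranks in all 4 groups. Col6a3 followed at 43.9 ± 9.14 TPM. Col14a1 (23.3 ± 14.6), Col12a1 (17.4 ± 5.43) and Col8a1 (16.6 ± 3.49) came next, and their CTRL values overlapped, so their order is not resolved. Col6a1 exceeded Col6a2, and Col6a2 exceeded Col6a3, in 12 of 12 libraries. Col6a3 exceeded Col12a1 and Col14a1 in 12 of 12 libraries too. Against Col8a1 the order was not fixed: Col6a3 was the higher of the pair in 8 of 12 libraries and in 0 of the 3 DKO libraries.

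**Figure D1:**
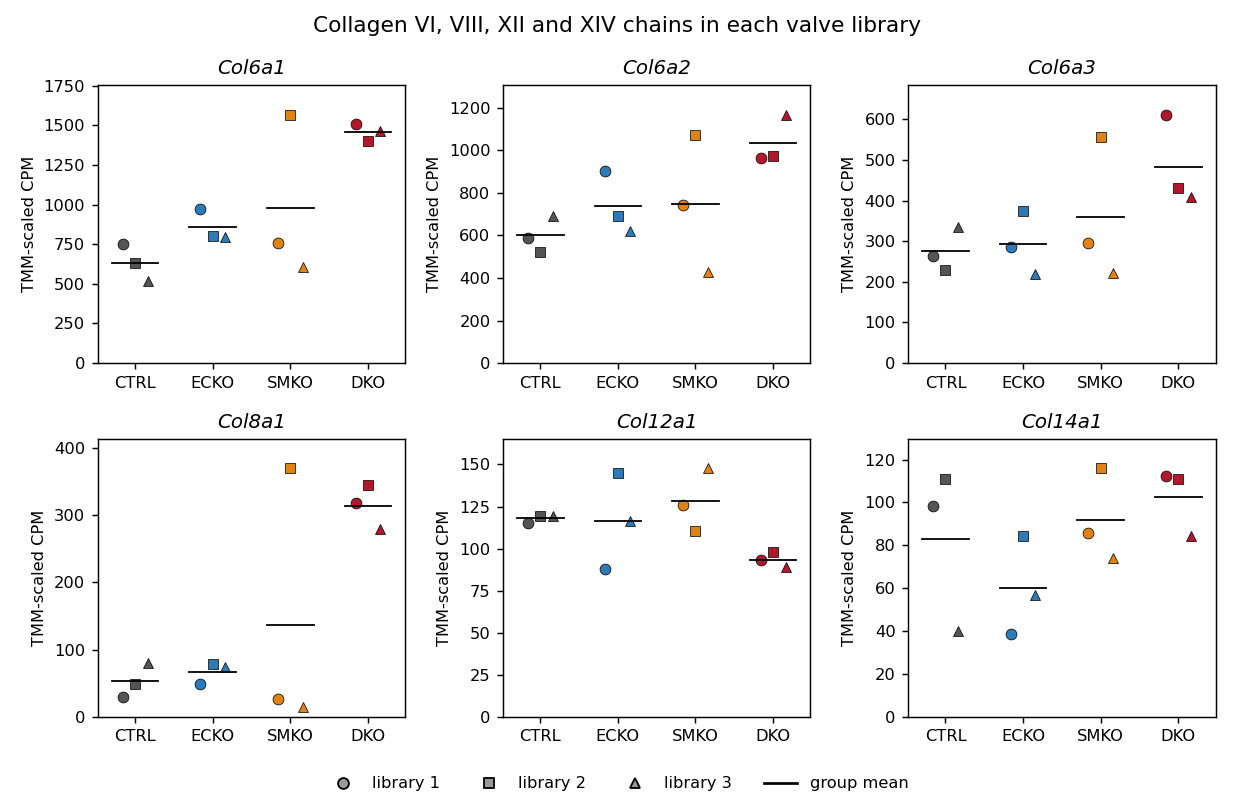
TMM-scaled CPM of each chain (vertical axis, starting at 0, a scale of its own per chain) in the 12 libraries, by genotype group on the horizontal axis, with one point per library and a line at each group mean. The 3 DKO libraries and SMKO 2 are high for Col8a1 (280 to 370 CPM), and the other 8 libraries lie below 80 CPM.

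Col8a1, the alpha chain that can form collagen VIII homotrimers, showed the largest difference of the 6. It was measured at 29.6, 48.0 and 79.5 CPM in CTRL 1 to 3, at 49.3, 78.1 and 74.1 CPM in ECKO, and at 318, 345 and 279.6 CPM in DKO. SMKO held values of 25.6 CPM, 369.8 CPM and 14.8 CPM, so that SMKO 2 lay above every DKO library while SMKO 1 and SMKO 3 lay below every CTRL library. The SMKO 3 value rests on 1 count, with an exact Poisson 95% interval of 0.374 to 82.3 CPM, and the CTRL 3 value on 10 counts (38.1 to 146 CPM). These intervals cover counting error only. The DKO libraries did not overlap CTRL or ECKO. Group means were 52.4 ± 25.2 CPM in CTRL, 67.2 ± 15.6 CPM in ECKO, 137 ± 202 CPM in SMKO, with DKO at 314 ± 33.0 CPM (SD, n = 3 each).

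With all 12 libraries in a single edgeR model, Col8a1 did not pass the test in any comparison, while limma-voom on the same libraries called it in DKO against CTRL (log2 2.94, adjusted p = 0.0178). DKO exceeded CTRL by 2.81 ± 0.88 (SE) on the log2 scale, with an adjusted p of 0.246 (edgeR quasi-likelihood test, Benjamini-Hochberg over 6296 genes). Against ECKO the difference was 2.16 ± 0.82 (adjusted p = 0.395), and against SMKO 1.20 ± 0.84 (adjusted p = 0.898). In this comparison of DKO with CTRL 0.492% of tested genes passed an adjusted p of 0.05, and 0.572% did so against ECKO. Against SMKO the share was 0%, with 397 genes (6.31%) at an unadjusted p under 0.05 and 3 genes called by DESeq2.

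These calls changed when SMKO 2 was left out. Without it, Col8a1 exceeded CTRL in DKO by 2.80 on the log2 scale with an adjusted p of 1.76e-08, and ECKO by 2.14 with an adjusted p of 2.07e-06. Without SMKO 2 the DKO libraries also exceeded the other SMKO libraries, by 3.68 (adjusted p = 2.16e-07). Calls rose over all genes too, so the change was not particular to Col8a1. Without SMKO 2, 139 of 7627 genes were called in DKO against CTRL, 151 against ECKO and 128 against SMKO. With all 12 libraries these numbers were 31, 36 and 0 of 6296. The estimate against CTRL hardly moved, and SMKO 2 enters this comparison only through the scaling, the filter and the spread that the 4 groups share. Fitting the DKO and CTRL libraries alone, an alternative added after the data were seen, gave 2.78 with an adjusted p of 2.03e-05, and DKO with ECKO alone gave 2.11 with an adjusted p of 8.09e-07. Leaving out SMKO 1 also brought Col8a1 under the threshold against CTRL (adjusted p = 0.0414), while leaving out any other library did not. Of 22 alternative settings, 18 left Col8a1 above the threshold against CTRL, with adjusted p-values up to 0.92, each from the test of its setting. SMKO 2 had 24.1% mitochondrial counts, within the range of the other libraries, and the lowest scaling factor of the 12 at 0.723. Whether the state of this library bears on the value was not tested. Its labels place it with SMKO, and its Efemp2 count was 0.

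**Figure D2:**
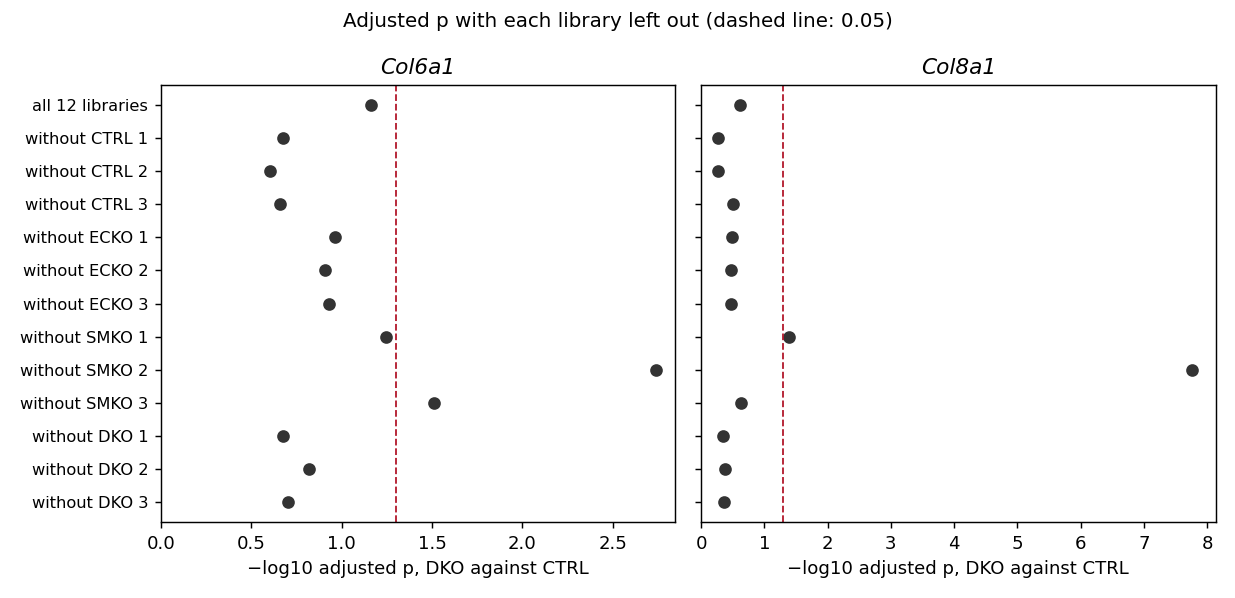
Adjusted p of Col6a1 (left) and Col8a1 (right) for DKO against CTRL, as −log10 on the horizontal axes, whose ranges differ, with all 12 libraries and with each library left out (rows). The dashed line marks 0.05. The point without SMKO 2 lies farthest past the line in both panels, at 0.00182 for Col6a1 and 1.76e-08 for Col8a1.

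On the per-length scale the same libraries stood out. Col8a1 was at 12.7, 19.4 and 17.6 TPM in CTRL, 13.7, 28.9 and 28.9 TPM in ECKO, 9.33, 69.3 and 3.99 TPM in SMKO, while DKO had 83.1, 134 and 76.0 TPM. On this scale every DKO library exceeded all 9 others, SMKO 2 included. By mean TPM Col8a1 ranked 18 of the 42 collagen chains in CTRL, 16 in ECKO, 14 in SMKO but 10 in DKO. In the authors' deposited table the Col8a1 fold in DKO is 6.26 against CTRL with a p of 5.85e-06, 4.62 against ECKO with a p of 0.000115 and 2.27 against SMKO with a p of 0.0385. The test behind those p-values is not stated.

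The partner chain Col8a2, which can also form collagen VIII on its own, was set beside Col8a1 after its values were seen. Col8a2 averaged 44.4 ± 16.9 TPM in CTRL, 60.5 ± 3.18 TPM in ECKO, 38.8 ± 14.9 TPM in SMKO, with DKO at 52.6 ± 11.4 TPM. Its difference between DKO and CTRL was 0.45 ± 0.27 on the log2 scale (adjusted p = 0.55). Col8a2 was the higher chain in all 3 CTRL libraries, all 3 ECKO libraries and 2 of 3 SMKO libraries. Col8a1 was the higher chain in SMKO 2 and in 3 of 3 DKO libraries. The order of the collagen VIII chains thus differed between the DKO libraries and the CTRL libraries in every library of each.

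**Figure D3:**
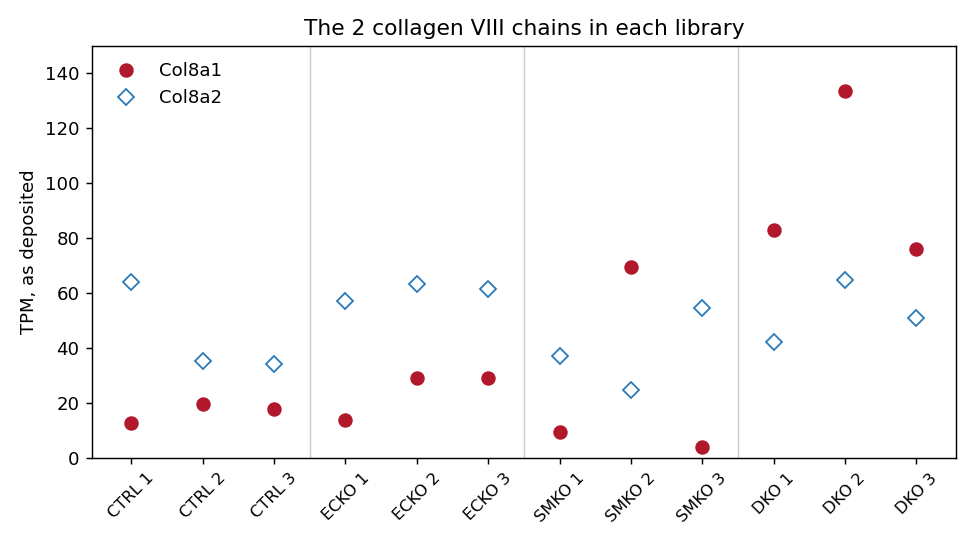
Deposited TPM (vertical axis, starting at 0) of Col8a1 (filled circles) and Col8a2 (open diamonds) in each of the 12 libraries, with grey lines between genotype groups. Col8a1 lies above Col8a2 in SMKO 2 and the 3 DKO libraries, and below it in the other 8.

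The collagen VI chains were each higher in DKO than in CTRL, by smaller amounts. Col6a1 was measured at 749, 632 and 517 CPM in CTRL, at 969.9, 803 and 796 CPM in ECKO, at 758, 1568 and 606 CPM in SMKO and at 1511, 1400.3 and 1464 CPM in DKO. The DKO libraries lay within a narrow band (1459 ± 55.5 CPM, SD, n = 3) above all CTRL and ECKO libraries, and SMKO 2 was again the highest of the 12. All 3 ECKO libraries lay above all 3 CTRL libraries for this chain by CPM. By TPM they overlapped (335 to 386 TPM in ECKO, 143 to 399.7 TPM in CTRL). ECKO differed from CTRL by 0.43 ± 0.31 on the log2 scale (adjusted p = 0.998, edgeR). The DKO excess over CTRL was 1.20 ± 0.31 on the log2 scale, a fold of 2.29, with an adjusted p of 0.0689 (edgeR), rank 46 by p among 6296 genes. It missed the threshold in this fit. With all 12 libraries it passed by DESeq2 (adjusted p = 0.00894), with no low-count filter (adjusted p = 0.0251) and with the replicate number as a block (adjusted p = 0.0408). It also passed without SMKO 2 (1.17, adjusted p = 0.00182), without SMKO 3 (adjusted p = 0.031) and with only DKO and CTRL in the fit (adjusted p = 0.00539). Under the other 16 of 22 alternative settings Col6a1 did not pass against CTRL. Adjusted p-values there ran up to 0.99996, each from the test of its setting. Against ECKO the difference was 0.77 ± 0.30 (adjusted p = 0.318). Against SMKO it was 0.57 ± 0.31 (adjusted p = 0.839), and 1.08 without SMKO 2 (adjusted p = 0.0233).

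Col6a2 was measured at 586, 521 and 692 CPM in CTRL, at 904, 690.2 and 623 CPM in ECKO, at 741, 1071 and 428 CPM in SMKO and at 963, 972 and 1167 CPM in DKO. The DKO libraries lay above all CTRL and ECKO libraries, and CTRL and ECKO overlapped. The DKO excess over CTRL was 0.79 ± 0.29 on the log2 scale (adjusted p = 0.239, edgeR). Col6a3, whose long chain carries the fragment known as endotrophin at its end, was measured at 264, 228 and 334 CPM in CTRL, at 285, 375 and 219.9 CPM in ECKO, at 296, 558 and 222 CPM in SMKO and at 611, 431 and 408 CPM in DKO. Here too DKO lay above CTRL and ECKO by CPM, with SMKO 2 in the DKO range. The DKO excess over CTRL was 0.83 ± 0.30 (adjusted p = 0.223, edgeR). Neither Col6a2 nor Col6a3 passed the threshold for DKO against CTRL under any of the 22 alternative settings, whose smallest adjusted p-values were 0.0903 and 0.0806.

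On the TPM scale the separation of DKO from CTRL and ECKO was narrower for these 2 chains. Col6a1 ran from 492 to 675 TPM in DKO and from 143 to 399.7 TPM in CTRL, with no overlap. For Col6a2 the lowest DKO library (214.1 TPM) and the highest CTRL library (213.6 TPM) nearly met. For Col6a3 DKO (52.2 to 78.4 TPM) and CTRL (34.9 to 53.2 TPM) overlapped. ECKO overlapped DKO for both Col6a2 (206 to 217 TPM) and Col6a3 (37.2 to 65.3 TPM). SMKO 2, the highest library by CPM for Col6a1, had 366 TPM, close to the 345 TPM of SMKO 1. DKO and SMKO, which overlapped by CPM, did not overlap by TPM for Col6a1 (204 to 366 TPM in SMKO) or Col6a3 (28.1 to 50.8 TPM in SMKO). For Col6a2 they overlapped on both scales. By limma on log2(TPM + 1) the median of all tested genes was itself 0.24 higher in DKO than in SMKO.

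The collagen VI mRNA was divided among its chains as follows. Col6a1 gave 55.1% ± 7.56 of the summed TPM of the 3 chains in CTRL, 58.3% ± 2.36 in ECKO, 59.8% ± 4.06 in SMKO, with DKO at 62.2% ± 1.33 (SD, n = 3). The DKO range (60.6% to 63.0%) lay just above the CTRL range (46.3% to 60.0%). Col6a2 gave 35.8% ± 5.65, 34.1% ± 2.03, 31.9% ± 4.24 and 30.1% ± 2.80 in the same order, and Col6a3 between 7.58% and 9.11% on average. The log2 ratio of Col6a2 to Col6a1 was lower in libraries with smooth muscle deletion (log2 difference -0.28, exact permutation p = 0.095, two-sided, 400 arrangements with a smallest p of 0.005). Over the family of 14 such ratio tests its adjusted p was 0.333. The 6 chains together made up 19.1% ± 2.23 of all collagen TPM in CTRL, 19.1% ± 0.069 in ECKO, 19.2% ± 2.84 in SMKO, with DKO at 19.7% ± 1.15.

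Of the fibril-associated chains, Col12a1 had its lowest mean in DKO and Col14a1 overlapped between DKO and CTRL. Col12a1, which is known for expression in tendon and other loaded tissue, was measured at 115, 119 and 119 CPM in CTRL, at 87.7, 145 and 116 CPM in ECKO, at 126, 110.4 and 148 CPM in SMKO and at 92.9, 98.0 and 88.8 CPM in DKO. All DKO libraries lay below all CTRL and all SMKO libraries and overlapped ECKO. The difference between DKO and CTRL was -0.33 ± 0.26 on the log2 scale (adjusted p = 0.691, edgeR), and on the TPM scale the groups overlapped. Col12a1 also had a lower ratio to Col1a1, the main chain of collagen I, in libraries with endothelial deletion (log2 difference -0.90, exact permutation p = 0.055, adjusted p = 0.333) and in those with smooth muscle deletion (log2 difference -0.76, exact permutation p = 0.09, adjusted p = 0.333), and neither passed. Its ratio to Col1a1 was 0.0375 ± 0.0157 by TPM in CTRL and 0.0116 ± 0.00392 in DKO (SD, n = 3).

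Col14a1 was measured at 98.3, 111 and 39.8 CPM in CTRL, at 38.4, 84.3 and 56.8 CPM in ECKO, at 85.8, 116 and 73.9 CPM in SMKO and at 112, 111 and 84.3 CPM in DKO. Every group overlapped CTRL, and the lowest value, in ECKO 1, rested on 7 counts. DKO differed from CTRL by 0.16 ± 0.30 on the log2 scale (adjusted p = 0.907, edgeR). The largest difference of this chain, DKO against ECKO, was 0.68 ± 0.32 (adjusted p = 0.44). Col14a1 exceeded Col12a1 by TPM in 3 of 3 DKO libraries, 2 of 3 CTRL libraries, 2 of 3 SMKO libraries and 1 of 3 ECKO libraries.

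Over the 6 chains, none passed the adjusted threshold in any of the 6 pairs of groups by edgeR with all 12 libraries. In DKO against CTRL, DESeq2 called 1 (Col6a1) and limma-voom called 1 (Col8a1), beside 42 and 21 of all 6296 genes. At an unadjusted p under 0.05 (edgeR), 4 of 6 were higher in DKO than in CTRL (Col6a1, Col6a2, Col6a3 and Col8a1), and 6.56% of all tested genes were higher at that level. The same level was reached by 4 of 6 in DKO against ECKO (Col6a1, Col6a3, Col8a1 and Col14a1), beside 6.05% of all genes. In SMKO against CTRL it was reached by 1 of 6 (Col6a1), beside 2.62%, and in DKO against SMKO, ECKO against CTRL and SMKO against ECKO by 0 of 6. In SMKO against CTRL, ECKO against CTRL and SMKO against ECKO 0% of all tested genes passed the adjusted threshold, with 344, 270 and 243 genes (5.46%, 4.29% and 3.86%) at an unadjusted p under 0.05 (edgeR) and 0, 2 and 2 genes called by DESeq2. The CPM of DKO and CTRL did not overlap for 5 of 6 chains, beside 17.8% of all tested genes, and for DKO and ECKO for 4 of 6, beside 18.8%. For DKO and SMKO 1 of 6 (Col12a1) did not overlap, beside 9.53%, and for ECKO and CTRL 1 of 6 (Col6a1), beside 11.7%. For SMKO, all 6 chains overlapped CTRL, beside 10.5% of genes that did not, and all 6 overlapped ECKO, beside 9.29%. The median log2 difference of the 6 was 0.81 in DKO against CTRL beside 0.018 for all tested genes, 0.69 against ECKO beside 0.019 and 0.42 against SMKO beside 0.021. These comparisons share the DKO libraries, and the members were not independent of each other.

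**Figure D4:**
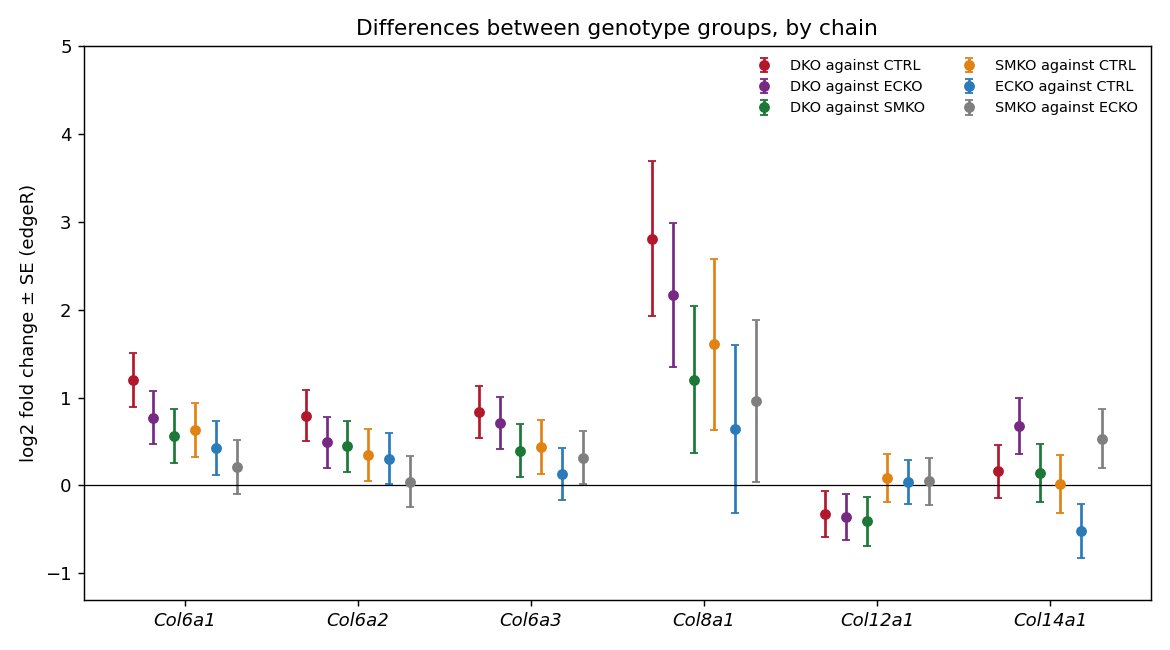
Log2 fold change ± SE (vertical axis, edgeR, 12 libraries) of each chain (horizontal axis) in the 6 pairs of genotype groups, by colour. Col8a1 has the largest value, 2.81 in DKO against CTRL, and the widest error bars, and the 3 comparisons of DKO lie below 0 for Col12a1.

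The design allows each deletion to be averaged over the other. Averaged over endothelial status, smooth muscle deletion gave 0.70 ± 0.22 for Col6a1 (adjusted p = 0.174), 0.57 ± 0.21 for Col6a3 (adjusted p = 0.274) and 1.88 ± 0.64 for Col8a1 (adjusted p = 0.334), and 0.206% of tested genes passed. Without SMKO 1 the Col8a1 average was 2.27 with an adjusted p of 0.0221, and without SMKO 2 it was 0.63 with an adjusted p of 0.557. Over all genes, 95 of 6009 were called for this average without SMKO 1 and 9 of 7627 without SMKO 2. Endothelial deletion, averaged over smooth muscle status, gave 0.50 ± 0.22 for Col6a1 (adjusted p = 0.943) and 0.92 ± 0.64 for Col8a1 (adjusted p = 0.999), and 0% of genes passed, with 313 (4.97%) at an unadjusted p under 0.05. Without SMKO 2 these became 0.75 (adjusted p = 0.0324) and 2.17 (adjusted p = 1.59e-06), beside 37 of 7627 genes called. The interaction, the difference of DKO from the sum of the single deletions, was 0.56 ± 1.29 for Col8a1 (adjusted p = 0.991), beside 0.0318% of genes passing. Without SMKO 2 it was 3.02 (adjusted p = 0.000922), beside 62 of 7627 genes called, and without SMKO 1 it was -0.23. No member passed in any of these 3 tests with all 12 libraries, or in the test of any difference among the groups, where 0.302% of genes passed (edgeR). In that last test DESeq2 and limma-voom each called 1 chain, beside 37 and 11 genes in all.

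The collagen VI chains varied together over the 12 libraries. Pearson's r of log2 CPM was 0.863 between Col6a1 and Col6a2 (Spearman's rho 0.825, permutation p = 0.00052 and 0.00173, adjusted over 15 pairs 0.00458 and 0.0094). For Col6a1 and Col6a3 r was 0.797 (rho 0.734, permutation p = 0.00264 and 0.00878, adjusted 0.0066 and 0.0219), and for Col6a2 and Col6a3 0.811 (rho 0.825, permutation p = 0.00157 and 0.00155, adjusted 0.00471 and 0.0094). Without the 2 libraries farthest from the median of the first chain of each pair r was 0.829, 0.644 and 0.823. These were DKO 1 and SMKO 2 for both pairs of Col6a1, and DKO 3 and SMKO 3 for Col6a2 with Col6a3, where SMKO 2 stayed in. Within groups, after group means were taken out, r was 0.746, 0.650 and 0.708. Col12a1 ran the other way against Col6a1, with r of -0.69 (rho -0.70, permutation p = 0.0147 and 0.0143, adjusted 0.0276 and 0.0272), -0.72 without the 2 farthest libraries and -0.60 within groups. Against Col6a2 its r was -0.77 (rho -0.70, permutation p = 0.00397 and 0.0145, adjusted 0.00851 and 0.0272), -0.60 without the 2 farthest libraries and -0.68 within groups. Against Col6a3 it was weaker and did not pass, with r of -0.46 (rho -0.44, permutation p = 0.137 and 0.154, adjusted 0.187 and 0.193) and -0.19 within groups. All of these pairs share library scaling. The permutations shuffled all 12 libraries without regard to genotype, so their p-values also take in differences between the groups. The within-group values of r were not tested. Values of Col8a1 fell into separate clusters, 4 high and 8 low libraries, so no pooled r is given for its pairs.

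The tested genes whose log2 CPM profile was most like that of each chain were found among 3107 genes with a mean count of at least 20, as a description. For Col6a1 they were Dap (r = 0.926), Col4a1 (0.926), Col15a1 (0.925), Sparc (0.923) and Frzb (0.922). Sparc is a collagen-binding glycoprotein, Col4a1 a basement membrane chain and Frzb a secreted Wnt antagonist. Col6a2 was most like Bsg (0.947), Sfxn3 (0.946), Pdlim7 (0.937), Gapdh (0.933) and Ecm1 (0.917). For Col6a3 they were Fgf2 (0.931), Npy (0.913), Fkbp1a (0.911), Col15a1 (0.903) and Srgn (0.898). Col15a1, a basement membrane zone collagen, was on both lists. Col8a1 profiles matched Timp1 (r = 0.956 within groups), S100a4 (0.979), Serpine2 (0.895) and Col5a2 (0.931), values that the spread among the SMKO libraries dominates. Timp1 is a metalloproteinase inhibitor and Serpine2 a protease inhibitor. Genes like Col12a1 included Afdn (0.862), Ptgs1 (0.838), Per1 (0.819) and Trpm7 (0.809), and Col14a1 was most like Degs1 (0.942), Akt1 (0.893), Twf1 (0.891), Tmod3 (0.870) and Tor1aip2 (0.856). No collagen chain was among the closest for either fibril-associated chain.

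Genes that work with these collagens were read from 6 lists, and none of their tested members passed the threshold in any pair of groups. Genes named are the 2 with the smallest p per list in DKO against CTRL. Of other filament, short-chain and fibril-associated chains, 3 of the 12 in the table were tested, 3 were higher in DKO, 1 at an unadjusted p under 0.05, and the median log2 difference was 0.45. Col16a1, a fibril-associated chain, went from 90.1 ± 11.5 CPM in CTRL to 199 ± 21.8 CPM in DKO (log2 1.20 ± 0.29, adjusted p = 0.0543, edgeR), as large a difference as that of Col6a1. Of fibrillar chains, 7 of 7 tested were higher, 5 of them at an unadjusted p under 0.05, with a median of 0.81. Col1a1 was at 1699.5 ± 603 CPM in CTRL and 4169 ± 1034 CPM in DKO (1.30, adjusted p = 0.131), and Col5a2 at 451 ± 51.0 CPM and 905 ± 119.6 CPM (1.00, adjusted p = 0.172). The ratio of Col6a1 to Col1a1 differed little with smooth muscle deletion (log2 difference -0.026, exact permutation p = 0.915).

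The list of cell surface receptors had 7 of 8 tested members higher in DKO than in CTRL, 1 at an unadjusted p under 0.05, and a median of 0.35. Cspg4, the NG2 proteoglycan that binds collagen VI, was at 52.5 ± 14.8 CPM in CTRL and 103 ± 32.9 CPM in DKO (1.05, adjusted p = 0.197), and Ddr2, a collagen receptor kinase, differed by 0.44 (adjusted p = 0.509). Of matrix partners 7 of 10 were higher, 3 at an unadjusted p under 0.05, with a median of 0.49. Fmod, a small proteoglycan of collagen fibrils, was at 676 ± 28.7 CPM in CTRL and 1386 ± 707 CPM in DKO (1.03, adjusted p = 0.125), and Tnc, a matricellular glycoprotein, at 4.35 ± 5.07 CPM and 43.6 ± 35.7 CPM (3.01, adjusted p = 0.276). Of folding and modifying enzymes 12 of 12 were higher, 6 at an unadjusted p under 0.05, with a median of 0.62. Serpinh1, the collagen chaperone HSP47, differed by 0.92 (adjusted p = 0.167) and Plod2, a lysyl hydroxylase, by 0.76 (adjusted p = 0.223). Of proteases and their enhancers 5 of 5 were higher, 2 at an unadjusted p under 0.05, with a median of 0.59. Pcolce, an enhancer of procollagen processing, differed by 0.92 (adjusted p = 0.167) and Mmp2 by 0.84 (adjusted p = 0.223). Over all tested genes 51.7% were higher in DKO, 6.56% of all at an unadjusted p under 0.05 (edgeR), with a median of 0.018.

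**Figure D5:**
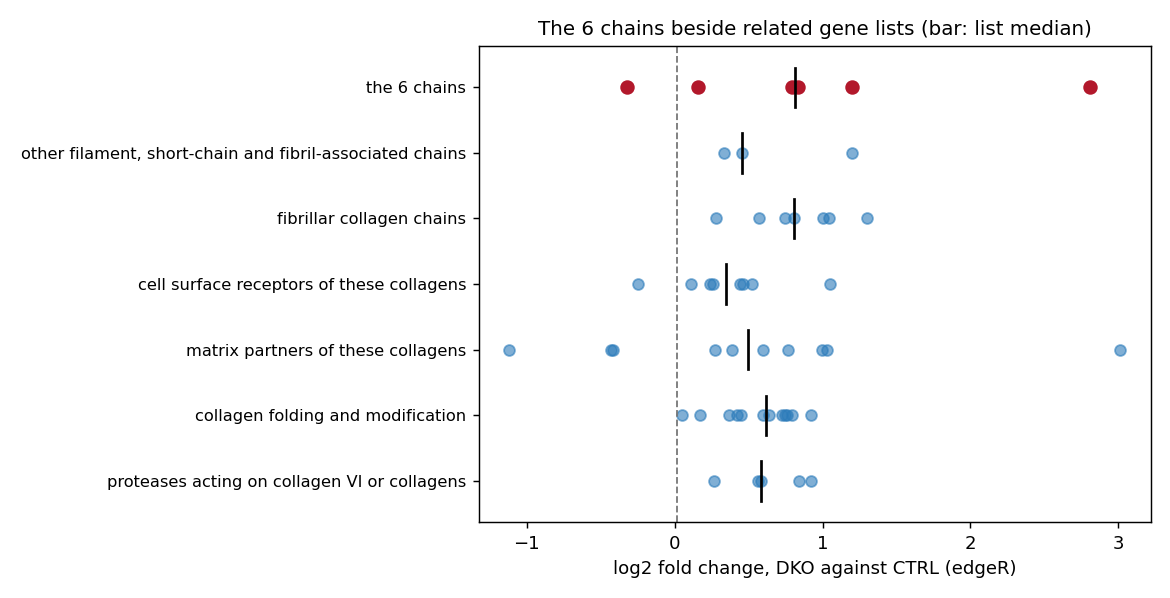
Log2 fold change in DKO against CTRL (horizontal axis, edgeR) of every tested member of the 6 related lists (blue) and of the 6 chains (red), one list per row, with a black bar at each list's median and a dashed line at the median of all tested genes. The 6 chains have a median of 0.81, as the fibrillar chains do, and the receptors the lowest of the lists at 0.35.

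Some marker sums differed between groups without overlap, and others overlapped. Between DKO and CTRL only the smooth muscle or myofibroblast sum did not overlap. The part of these markers in the results was not tested. The summed CPM of the 4 smooth muscle or myofibroblast markers, all 4 detected, ran from 231 to 283 in CTRL, 274 to 314 in ECKO, 148 to 247 in SMKO, and for DKO 311 to 358, so DKO lay above CTRL without overlap. SMKO 2, which resembles DKO in Col8a1, had 193 CPM on this list, below every CTRL library. The 7 interstitial markers summed to 5478 to 6878 CPM in CTRL and 4774 to 7192 CPM in DKO, with overlap, and the 8 endothelial markers to 945 to 1137 CPM and 777 to 1061 CPM, also with overlap. In ECKO the endothelial sum ran from 1206 to 1485 CPM, above every CTRL and every DKO library, and in SMKO from 927 to 1640 CPM. The 5 melanocyte markers, all detected, ran from 175 to 686 CPM in CTRL, 38.4 to 76.6 CPM in ECKO, 207 to 1054 CPM in SMKO, with 375 to 929 CPM for DKO. The 7 macrophage markers (661 to 867 CPM in CTRL, 488 to 1109 CPM in DKO) and the 4 cartilage markers (207 to 390.4 CPM and 266 to 356 CPM) overlapped between DKO and CTRL. Blood markers, 5 of 5 detected, ran from 217 to 3665 CPM in CTRL and 107 to 457 CPM in DKO, with overlap. Heart muscle markers, 6 of 6 detected, ran from 24.95 to 63.6 CPM in CTRL and 61.8 to 83.1 CPM in DKO, with a small overlap. The adipocyte marker Cidec was at 0 in every library.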

How the data were processed

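RNA from 12 libraries (3 per genotype) was compared. The deposited table holds raw gene counts and TPM values side by side, per the file headers, with the authors' signed fold changes and p-values for DKO against the other groups (other values, used only as the authors' deposited values). The submitters' processing notes name the build GRCm39. The aligner and counting settings were not stated there, and no molecular identifiers were mentioned. Counts were fitted with edgeR 4.0.16 (R 4.3.3, TMM scaling, filterByExpr with a minimum count of 10, quasi-likelihood F test, robust, 8 residual degrees of freedom), in a single model of the 12 libraries, with Benjamini-Hochberg adjustment over 6296 genes. DESeq2 1.42.0 and limma 3.58.1 served as alternatives. Chain ratios used log2(CPM + 0.5) with exact permutations within the other deletion. Pearson and Spearman permutation tests used scipy 1.17.1. The scripts were tested on simulated data. The members and lists were chosen with earlier results of these data known. Genes named beside the 6 chains are the 2 with the smallest p in each list in DKO against CTRL, unless called, and the 5 with the highest r to each chain, with predicted gene models left out; some genes that the rule names are not reported here. The labels do not tie libraries to animals, so p-values measure the spread between these samples. Replicates differed by more than sampling noise. The data gave a biological coefficient of variation of 0.246.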

Additional observations from a re-analysis of the deposited data

How the results depend on the processing

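The 4 chains that were higher in DKO than in CTRL (Col6a1, Col6a2, Col6a3 and Col8a1) kept that direction under all 22 alternatives, with log2 differences of 1.06 to 1.33, 0.63 to 0.88, 0.63 to 0.95 and 2.45 to 3.00. In DKO against CTRL 1 chain was called with no low-count filter, 1 with DESeq2, 1 with limma-voom and 1 with the replicate block, and 2 with only the groups compared in the fit. In DKO against ECKO 1 chain was called with only the groups compared, and for any difference among the groups 1 with DESeq2 and 1 with limma-voom. Over all genes DESeq2 called 42 in DKO against CTRL and 37 for any difference, and limma-voom 21 and 11. Leaving out each library gave 0 to 2 called chains for DKO against CTRL, 0 to 1 for DKO against ECKO, 0 to 2 for DKO against SMKO, 0 to 2 for any difference, 0 to 2 for the endothelial average, 0 to 1 for the interaction, 0 to 1 for the smooth muscle average, and 0 to 0 for the other pairs and for the chain ratios. The upper ends above 0 came from the fit without SMKO 2, but for the smooth muscle average from that without SMKO 1 (95 genes called). Without SMKO 2 calls over all genes were 128 for DKO against SMKO and 151 for any difference. They were 37 for the endothelial average and 62 for the interaction. Genes called in DKO against CTRL numbered 31, and 158 with no low-count filter, 17 with log10 of the total count as a covariate, 98 with only the groups compared, and 4 to 139 with 1 library left out; DKO against ECKO gave 36, 173, 10 and 172, with 0 to 151 when 1 library was left out (0 without ECKO 2, ECKO 3 or DKO 1, 151 without SMKO 2), 12 with limma-voom and 73 with Y-linked counts as a covariate.

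Same-numbered libraries deviated together with r of -0.13 to 0.14 (median 0.065), over 0.1 in 5 of 18 pairs, so the rule that every pair exceed 0.1 was not met and the block was kept as an alternative. Yet 10 of 12 libraries correlated best with their own number, and the median r of libraries with other numbers was -0.036, a hint of pairing from the data and not from the labels. The replicate block gave 49 genes in DKO against CTRL, among them 1 chain, Col6a1 (log2 1.22, adjusted p = 0.0408). It was not run for the chain ratios.

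The following differences changed sign under some settings, and none of them was called with all 12 libraries. Only the Col8a1 interaction was called in any setting, without SMKO 2 (3.02, adjusted p = 0.000922, edgeR). The differences that changed sign included those of Col8a1 in SMKO against CTRL (1.60 with all libraries) and SMKO against ECKO (0.96). Col14a1 in SMKO against CTRL was -0.038 with no low-count filter, Col6a2 in SMKO against ECKO -0.043 with limma-voom and -0.016 with Y-linked counts as a covariate, and Col8a1 in SMKO against ECKO -0.34 with limma-voom. With limma on log2(TPM + 1), chosen after seeing the data, the median of all genes shifted by -0.37 in SMKO against CTRL and -0.40 in SMKO against ECKO. There SMKO against CTRL was -0.12 for Col6a2, -0.064 for Col6a3, -0.18 for Col8a1, -0.23 for Col12a1 and -0.12 for Col14a1, ECKO against CTRL -0.028 for Col12a1, and SMKO against ECKO -0.30 for Col6a1, -0.43 for Col6a2, -0.16 for Col6a3, -0.62 for Col8a1 and -0.20 for Col12a1. Leaving out each library gave Col12a1 -0.17 to 0.14 in ECKO against CTRL and -0.082 to 0.25 in SMKO against ECKO, and Col14a1 -0.037 to 0.35 in DKO against CTRL and -0.17 to 0.21 in SMKO against CTRL. Col6a1 ran from -0.32 to 0.43 in SMKO against ECKO and -0.094 to 0.66 for the interaction, Col6a2 from -0.29 to 0.29 and -0.11 to 0.47 for the same, Col6a3 from -0.11 to 0.30 in ECKO against CTRL, -0.014 to 0.62 in SMKO against CTRL and -0.14 to 0.54 in SMKO against ECKO, and Col8a1 from -0.88 to 2.38, -1.54 to 1.74 and -0.23 to 3.02 in SMKO against CTRL, SMKO against ECKO and the interaction. Log2 ratios ran from -0.11 to 0.27 for Col14a1 to Col12a1 with endothelial deletion, and with smooth muscle deletion from -0.48 to 0.16 for Col14a1 to Col1a1, -0.21 to 0.13 for Col6a1 to Col1a1 (-0.27 to 0.078 with endothelial deletion) and -0.22 to 0.0051 for Col6a3 to Col6a1. The cause of these changes was not tested. Counts of 1 to 10 for Col8a1, Col12a1 and Col14a1 in the shallowest libraries limit their precision.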
